A study of Mus musculus with 24 samples.

Results

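The calcium oscillations of a fertilized mouse egg are carried by a small set of channels, pumps and calcium-binding proteins, and 10 of their genes were followed here among the 55487 genes measured: Itpr1, Atp2a2, Stim1, Orai1, Saraf, Trpm7, Trpv3, Cacna1h, Camk2g and Calm2. They were named by symbol for their roles, with earlier results of these data known. All 10 symbols matched 1 Ensembl identifier each in the GRCm38 annotation. RNA sequencing was done on oocytes and embryos of wild-type mice and of Nlrp14 knockout mice, in a series on female infertility and early embryo arrest. The 8 groups were wild type and knockout, each at 4 stages: oocytes with a germinal vesicle (GV), oocytes at metaphase II (MII), zygotes at pronuclear stage 5 (PN5) and 2-cell embryos. Each group had 3 libraries labelled as biological replicates, and each library pooled 5 oocytes or embryos, so the error between libraries is that between pools. The labels name the knockout by its gene, and the titles of its samples carry the code HO. The deleted part of Nlrp14, the strain, the age of the mice and the males used are not given in the sources used here.

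In the egg, sperm entry leads to IP3 production, and IP3 opens IP3 receptors in the membrane of the endoplasmic reticulum, the calcium store. SERCA pumps return the calcium to the store, and calcium lost to the outside is replaced through channels of the plasma membrane. Calmodulin binds the released calcium and switches on CaM kinase II, which starts the exit from meiosis. The oocyte loads much of this machinery before ovulation, and the embryo begins to transcribe its own copies at the 2-cell stage. Levels are given as FPKM, the fragments of a gene scaled for transcript length and for the depth of the library, so they compare between genes per length. A difference is the change in mean log2(FPKM + 1), as knockout less wild type or as later less earlier stage, with its SE.

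Calm2 and Calm3 make the same calmodulin protein from RNAs that can be told apart, and the start of each coding sequence is shown for that reason. Both encode the same 149 residues from coding sequences of 450 nt. They differ at 78 of these positions, an identity of 82.7%, and their longest stretch in common is 17 nt. The first 150 nt of each are printed 5′ to 3′ from the GRCm38 transcripts, with the 23 positions at which they differ in capitals. The coding sequence of Calm2 spans chr17:87434027-87446795 (minus strand) and that of Calm3 chr7:16916948-16923843 (minus strand).
Calm2: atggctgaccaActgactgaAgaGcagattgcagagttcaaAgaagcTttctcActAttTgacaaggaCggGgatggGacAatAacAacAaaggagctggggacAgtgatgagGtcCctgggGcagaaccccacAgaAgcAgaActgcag
Calm3: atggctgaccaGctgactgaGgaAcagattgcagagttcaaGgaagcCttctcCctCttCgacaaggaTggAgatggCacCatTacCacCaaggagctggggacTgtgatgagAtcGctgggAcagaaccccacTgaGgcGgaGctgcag

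Nlrp14 itself, measured first as a check of the labels, lay at 1876 to 2014 FPKM in wild-type GV oocytes and at 22.2 to 39.2 FPKM in the knockout ones. At the 2-cell stage it lay at 90.2 to 129 FPKM in wild type, against 17.2 to 36.2 FPKM in the knockout, and the genotypes did not overlap at any stage. Depth read from the values was 7.65 to 12.3 M (mega) fragments per library, so 1 fragment in a transcript of 1 kb was worth 0.0814 to 0.131 FPKM. All 12 oocyte markers reached a mean of 1 FPKM in 5 groups and 11 of them in the other 3. Of the 10 sperm markers, 3 or fewer reached a mean of 1 FPKM in any group (Prm2, Odf1 and Ldhc). Libraries differed in how they weigh long against short transcripts: the slope of log2 level on log2 exon length, over 16396 genes, ran from 0.0111 to 0.0390 in 5 GV libraries and was -0.0808 in knockout GV replicate 3. It was 0.0264, 0.114 and 0.167 in the 3 wild-type PN5 libraries, against 0.186 to 0.196 in the knockout ones.

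**Figure D1:**
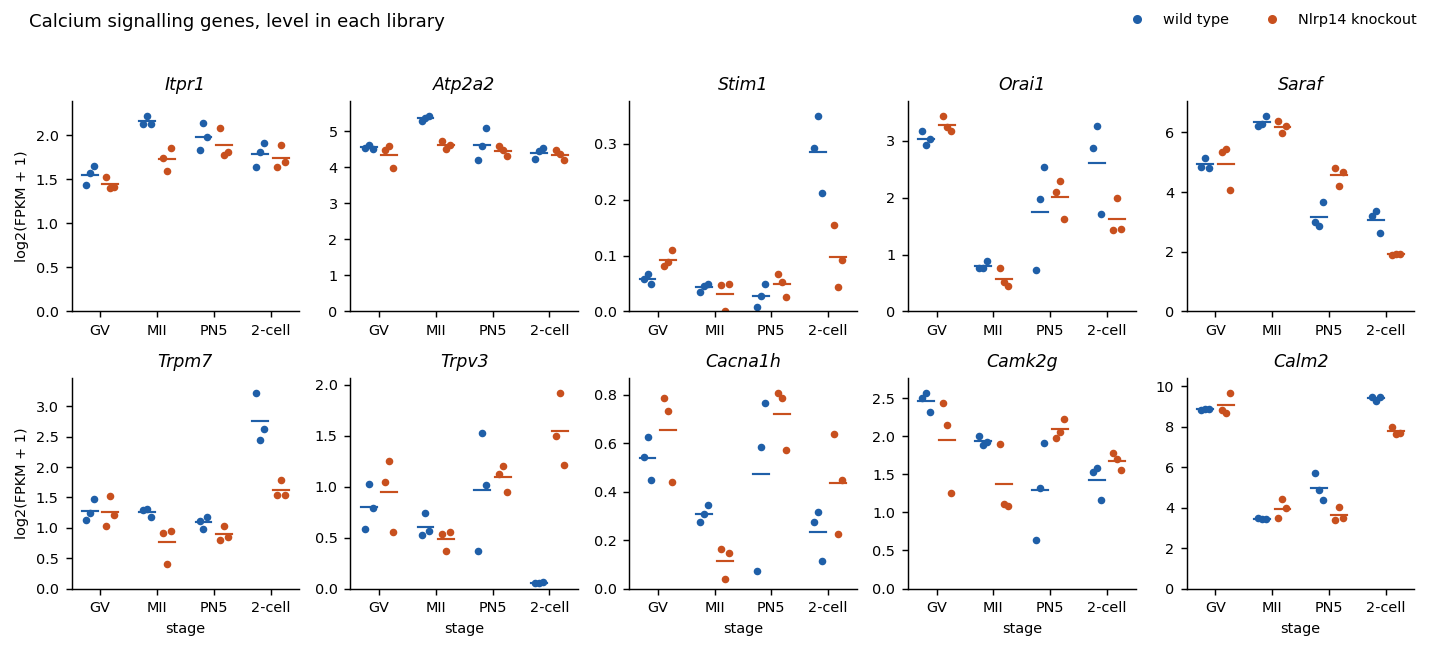
Level of each of the 10 genes in every library, as log2(FPKM + 1) on the vertical axis, by stage and genotype. Points are libraries and bars are means of 3 libraries; the vertical scale differs between panels. Calm2 drops from GV to MII oocytes and is back at the 2-cell stage, and Trpv3 is near 0 in wild-type 2-cell embryos.

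Between wild type and knockout, no member was called in GV oocytes, 1 each in MII oocytes and PN5 zygotes, and 4 in 2-cell embryos. Of the members that reached the level for testing, 0 of 8 were called at GV, with limma on log2(FPKM + 1) and Benjamini-Hochberg adjustment over all genes, and 0 of 8 had an unadjusted p under 0.05. The share called among all genes tested at GV was 0.0430%. At MII 1 of 6 was called (Atp2a2, lower in the knockout), where 2.28% of all genes were. At PN5 1 of 8 was called (Saraf, higher), where 6.10% of all genes were. At the 2-cell stage 4 of 8 were called, Trpv3 higher and Calm2, Saraf and Trpm7 lower, but there 54.3% of all genes were called, so the count of members was close to the background. Trpv3 was tested there only because the knockout libraries reached 1 FPKM. The median difference of the tested members there was -0.52, beside -0.44 over all genes, and at MII it was -0.46 beside -0.18. An unadjusted limma p under 0.05 was found for 4 of 6 members at MII, 3 of 8 at PN5 and 5 of 8 at the 2-cell stage. Over all genes it was found for 1378 of 11635 at GV, 2544 of 8739 at MII, 2964 of 9483 at PN5 and 8277 of 13828 at the 2-cell stage. Stim1 and Cacna1h stayed under 1 FPKM in all 24 libraries and were tested in no comparison.

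**Figure D2:**
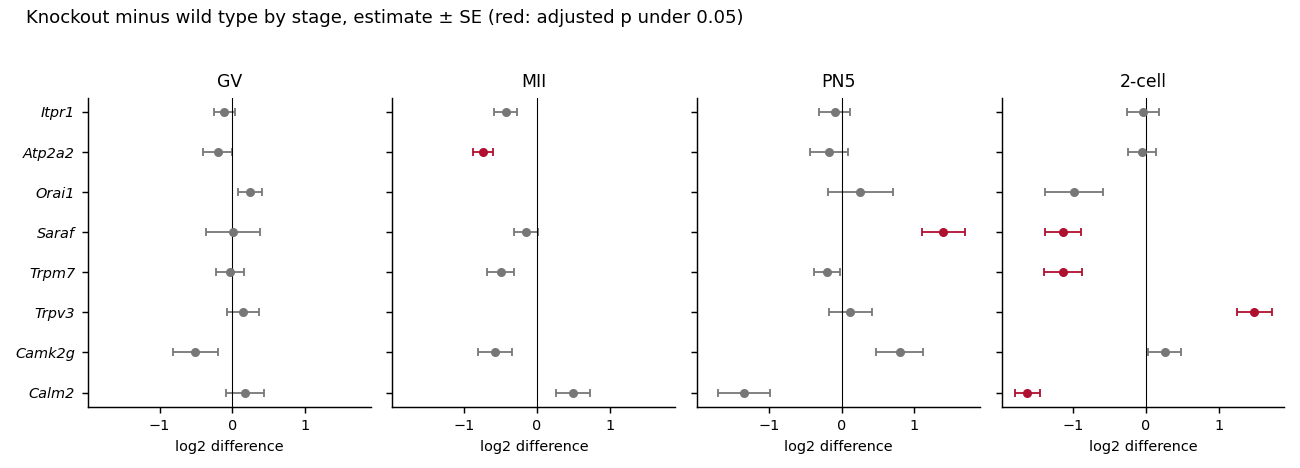
Difference between knockout and wild type for the 8 testable genes at each stage, as limma's log2 difference on the log2(FPKM + 1) scale, with its SE as the error bar. Red marks an adjusted p under 0.05: 0 genes in GV oocytes, 1 at MII, 1 in PN5 zygotes and 4 in 2-cell embryos. Orai1 and Trpv3 did not reach the testing level at MII.

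Wild-type development was followed over its 3 steps. From GV to MII 6 of 7 tested members were called, where 84.0% of all genes were: Itpr1, Atp2a2 and Saraf rose and Calm2, Orai1 and Camk2g fell. With the length trend removed, 2 of the 7 were called as higher and 5 as lower, with Itpr1 among the lower. Over all genes, 3157 were then called as higher and 6402 as lower. From MII to PN5 2 of 6 were called (Saraf lower, Calm2 higher), against 14.2% of all genes. From PN5 to the 2-cell stage 2 of 7 were called (Calm2 and Trpm7, both higher), against 62.8% of all genes. Whether a stage change differed between genotypes was tested by the interaction term. It was called for 0 of 8 members from GV to MII (background 0.120%, with 2 of 8 under an unadjusted p of 0.05), for 2 of 8 from MII to PN5 (background 7.45%) and for 3 of 8 from PN5 to the 2-cell stage (background 45.8%).

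The scale of the libraries bears on these counts. With median-of-ratios rescaling the all-gene median went from -0.18 to 0.03 for knockout against wild type at MII, from -0.50 to -0.22 for wild type from GV to MII and from 0.70 to 0.29 from PN5 to the 2-cell stage. The share of called genes that were higher went from 14.1% to 35.4% at MII, from 9.34% to 26.7% at PN5, from 68.8% to 55.9% in wild type from MII to PN5 and from 76.4% to 63.4% from PN5 to the 2-cell stage. The number of genes called went from 199 to 65 at MII and from 578 to 15 at PN5, so the rescaled share at PN5 rests on 15 genes. In wild type it went from 1335 to 1457 from MII to PN5 and from 8418 to 8610 from PN5 to the 2-cell stage. For wild type from PN5 to the 2-cell stage Atp2a2 and Itpr1 were then called as lower, while Calm2 and Trpm7 remained called as higher.

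Itpr1 (ENSMUSG00000030102, chr6:108213096-108551109, plus strand) encodes the type 1 IP3 receptor, the channel through which the egg's store is known to release calcium. Its RNA was low and even, between 1.64 and 3.65 FPKM over all libraries. Wild-type GV oocytes held 1.70, 1.97 and 2.14 FPKM and wild-type MII oocytes 3.36, 3.65 and 3.38 FPKM. The 2 groups did not overlap, and Itpr1 rose by 0.61 ± 0.10 (log2 difference ± SE, limma adjusted p = 0.00080). With the trend of level on transcript length removed, the same comparison gave -0.29 (limma adjusted p = 0.027), and over the alternatives it ran from -0.29 to 1.00; Itpr1 has 18319 nt of exons, the longest of the 10 genes. In knockout MII oocytes it lay at 2.34, 2.02 and 2.63 FPKM, below all 3 wild-type libraries, a difference of -0.43 ± 0.16 that was not called (limma adjusted p = 0.13). In the other 3 stages the genotypes overlapped.

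Its relative Itpr2 was the more abundant receptor RNA per length in every group except wild-type 2-cell embryos. Itpr1 made up 11.2% ± 1.3 (SD, n = 3) of the summed FPKM of the 3 IP3 receptor genes in wild-type GV oocytes and 12.5% ± 0.5 in MII oocytes. Itpr2 stood at 24.9 ± 4.4 FPKM (SD, n = 3) in wild-type PN5 zygotes and at 1.27 ± 0.37 in wild-type 2-cell embryos, a 19.6-fold lower mean. In knockout 2-cell embryos Itpr2 was at 3.01, 4.36 and 3.94 FPKM, against 1.17, 1.69 and 0.964 FPKM in wild type. The groups did not overlap, the knockout being higher by 1.07 ± 0.24 (limma adjusted p = 0.0056), and the genotype difference changed from PN5 to the 2-cell stage by 1.2 ± 0.29 (interaction, limma adjusted p = 0.0053). Itpr1 was therefore 61.6% ± 9.4 of the receptor RNA in wild-type 2-cell embryos and 38.4% ± 2.3 in the knockout, while the Itpr1 level itself was 2.46 ± 0.33 and 2.36 ± 0.32 FPKM. Itpr3 did not pass 0.437 FPKM in any library.

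Atp2a2 (ENSMUSG00000029467, chr5:122453513-122502225, minus strand) encodes SERCA2, the pump that refills the store. Its share of the RNA of the 3 SERCA genes was at least 98.0% in every library, and neither Atp2a1 nor Atp2a3 passed 0.311 FPKM. Wild-type GV oocytes held 22.0, 23.6 and 21.6 FPKM and wild-type MII oocytes 38.2, 39.8 and 41.7 FPKM. Atp2a2 rose by 0.81 ± 0.08 between them (limma adjusted p = 2.6e-05). The rise was called in all 13 alternatives, but its size ran from 0.39 to 1.18. The length slopes of these libraries were 0.0111 to 0.0319 at GV and 0.173 to 0.187 at MII. In knockout MII oocytes the values were 25.4, 21.6 and 23.4 FPKM, all below the wild-type libraries and close to the GV level. The knockout mean was 58.9% of the wild-type mean, and Atp2a2 was lower by 0.74 ± 0.14 (limma adjusted p = 0.041).

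That call was near the threshold. It was lost in 10 of 13 alternatives, with values from -0.93 to -0.48, all lower in the knockout, and adjusted p from 0.0052 to 0.23. It was lost without any 1 of the MII libraries other than knockout replicate 1, and with median-of-ratios rescaling (-0.48, limma adjusted p = 0.093). Knockout MII replicates 2 and 3 also had lower length slopes, 0.0968 and 0.125, than the 3 wild-type libraries (0.173 to 0.187). With the length trend removed the difference was -0.66 (limma adjusted p = 0.037). The difference between genotypes in the GV to MII change, -0.54 ± 0.23, was not called (limma adjusted p = 0.72). At PN5 the wild-type libraries spread over 17.3, 23.0 and 32.7 FPKM around the knockout values of 18.7 to 22.9, and at the 2-cell stage the groups overlapped with means of 20.3 and 19.4 FPKM.

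Store-operated entry joins a sensor in the store membrane, STIM, to a pore in the plasma membrane, ORAI, and SARAF is a store membrane protein that slows this entry. Stim1 (ENSMUSG00000030987, chr7:102267806-102437319, plus strand) was near the limit of detection, with a highest value of 0.274 FPKM. Its relative Stim2 was 98.6% ± 0.2 (SD, n = 3) of the Stim RNA in wild-type GV oocytes and stood there at 2.86 ± 0.04 FPKM. Stim1 lies 4.73 Mb from Nlrp14 on chromosome 7, and its values in GV oocytes (0.0348 to 0.0472 FPKM in wild type, 0.0575 to 0.0787 FPKM in the knockout) did not overlap but were too low to be tested.

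Stim2 was high enough to be tested. At PN5 it was at 1.04, 1.40 and 1.60 FPKM in wild type, against 2.52, 2.79 and 2.65 FPKM in the knockout, without overlap, but the difference of 0.65 ± 0.20 was not called (limma adjusted p = 0.079). In 2-cell embryos wild type held 0.0742, 0.484 and 0.243 FPKM and the knockout 1.32, 1.35 and 1.10 FPKM. Only knockout libraries reached 1 FPKM there, which is how Stim2 came to be tested, so its direction followed from the filter. Stim2 was higher in the knockout by 0.84 ± 0.22 (limma adjusted p = 0.011). Stim1 made up 50.3% ± 21.6 of the small Stim total in wild-type 2-cell embryos and 5.29% ± 2.87 in the knockout, where Stim1 was at 0.158 to 0.274 FPKM in wild type, against 0.0311 to 0.114 FPKM in the knockout.

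Orai1 (ENSMUSG00000049686, chr5:123015074-123030456, plus strand), the pore gene, fell from GV to MII oocytes in wild type and then spread widely between libraries. It lies 0.513 Mb from Atp2a2. Wild-type GV oocytes held 7.97, 6.62 and 7.15 FPKM and wild-type MII oocytes 0.697, 0.698 and 0.849 FPKM. The MII mean was 9.68-fold lower, a fall by 2.24 ± 0.11 on the log2(FPKM + 1) scale (limma adjusted p = 5.2e-07). Knockout oocytes held 8.0 to 9.81 FPKM at GV, just above the wild-type range (difference 0.25 ± 0.17, limma adjusted p = 0.62), and 0.361 to 0.693 FPKM at MII, just below it and too low to be tested. Wild-type PN5 zygotes ranged from 0.661 to 4.83 FPKM, which took in all 3 knockout values.

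In 2-cell embryos Orai1 was at 6.33, 8.60 and 2.26 FPKM in wild type, against 1.69, 2.97 and 1.73 FPKM in the knockout. The groups overlapped through wild-type replicate 3, and the difference of -0.99 ± 0.40 was not called (limma adjusted p = 0.064). Without that replicate it was -1.44 (limma adjusted p = 0.0053), and it was called in 3 of 13 alternatives, with adjusted p up to 0.23. Of the other pore genes, Orai2 was too low to be tested, at 0.701, 0.321 and 0.115 FPKM in wild-type 2-cell embryos, against 0, 0.0375 and 0 FPKM in the knockout. Orai3 was at 4.55, 3.62 and 1.25 FPKM in wild type, against 0.10, 0.307 and 0.777 FPKM in the knockout at that stage. Orai3 reached 1 FPKM only in wild type there. It was lower in the knockout, with a difference of -1.5 ± 0.36 (limma adjusted p = 0.0084), and the genotype difference changed by -2.23 ± 0.50 from PN5 (interaction, limma adjusted p = 0.0034).

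Saraf (ENSMUSG00000031532, chr8:34154575-34170821, plus strand) was higher than wild type in knockout zygotes and lower in knockout 2-cell embryos. In wild type it rose from 27.8, 34.1 and 27.3 FPKM at GV to 73.2, 77.0 and 92.5 FPKM at MII, by 1.41 ± 0.12 (limma adjusted p = 1.3e-05). It then fell to 6.94, 6.19 and 11.8 FPKM at PN5, a 9.73-fold lower mean, with a fall by 3.18 ± 0.26 (limma adjusted p = 0.0011). Wild-type 2-cell embryos held 8.11, 9.25 and 5.25 FPKM, which overlapped with PN5.

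Knockout MII oocytes held 82.6, 62.2 and 74.0 FPKM, overlapping with wild type. Knockout PN5 zygotes held 27.3, 17.5 and 24.7 FPKM, all above the wild-type libraries, a 2.78-fold higher mean and a difference of 1.40 ± 0.29 (limma adjusted p = 0.041). Knockout 2-cell embryos held 2.75, 2.79 and 2.82 FPKM, all below the wild-type libraries, a 2.71-fold lower mean and a difference of -1.14 ± 0.25 (limma adjusted p = 0.0051).

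The turn in direction was tested directly. The genotype difference in Saraf changed by 1.55 ± 0.34 from MII to PN5 (interaction, limma adjusted p = 0.045) and by -2.54 ± 0.38 from PN5 to the 2-cell stage (interaction, limma adjusted p = 0.00038). The second of these was called in all 19 alternatives, from -3.01 to -2.31. The PN5 difference was called in 4 of 13 alternatives, with values from 1.24 to 1.71 and adjusted p from 0.0050 to 0.18, and the MII to PN5 interaction in 4 of 19 (1.24 to 2.04). The PN5 call was lost without wild-type replicate 2 (1.24) and without any 1 of the knockout PN5 libraries (1.27 to 1.58).

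Of the plasma membrane channels outside the store-operated route, Trpm7 (ENSMUSG00000027365, chr2:126791565-126876230, minus strand) encodes a channel joined to a kinase that also conducts magnesium and zinc. It lay between 0.329 and 1.89 FPKM in all libraries from GV to PN5. In MII oocytes the knockout libraries, at 0.886, 0.329 and 0.934 FPKM, were all below the wild-type ones, at 1.44, 1.47 and 1.27 FPKM, and only wild type reached 1 FPKM, but the difference of -0.50 ± 0.19 was not called (limma adjusted p = 0.13). Wild-type 2-cell embryos then held 8.27, 4.45 and 5.19 FPKM, a 5.28-fold higher mean than at PN5 and a rise by 1.67 ± 0.27 (limma adjusted p = 0.00068). Knockout 2-cell embryos held 1.89, 2.46 and 1.91 FPKM, below every wild-type library, a difference of -1.14 ± 0.26 (limma adjusted p = 0.0066). The change from PN5 to the 2-cell stage differed between genotypes by -0.94 ± 0.30 (interaction, limma adjusted p = 0.023). That interaction was called in 13 of 19 alternatives (-1.21 to -0.63). Its losses included median-of-ratios rescaling and the removal of the length trend. It was also lost without wild-type or knockout PN5 replicate 2 or wild-type 2-cell replicate 1. The 2-cell difference of Trpm7 was called in all 13 of its own, from -1.43 to -0.71.

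Trpv3 (ENSMUSG00000043029, chr11:73267388-73300363, plus strand), a calcium channel whose current grows during oocyte maturation, differed in the opposite direction. It stood between 0.291 and 1.88 FPKM in all libraries from GV to PN5 and overlapped between genotypes at each of these stages. Wild-type 2-cell embryos held 0.0412, 0.0353 and 0.0448 FPKM, or 2 fragments in each library. Knockout 2-cell embryos held 1.83, 2.77 and 1.31 FPKM, from 85, 126 and 63 fragments. Scaled for depth, the 274 fragments of the knockout against 6 of wild type are a ratio of 48.9 (95% exact interval 22.2 to 134.5, which covers counting error only).

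The limma difference for Trpv3 in 2-cell embryos was 1.48 ± 0.24 on the log2(FPKM + 1) scale, which understates the change of a gene this low (limma adjusted p = 0.0014). The change from PN5 differed between genotypes by 1.36 ± 0.38 (interaction, limma adjusted p = 0.011) and was called in all 19 alternatives. Trpv2, another channel of the family, was lower in knockout 2-cell embryos, with 2.70, 3.09 and 1.75 FPKM in wild type, against 0.246, 0.435 and 0.239 FPKM in the knockout (difference -1.41 ± 0.23, limma adjusted p = 0.0015). Trpv3 passed the filter at this stage only through the knockout libraries and Trpv2 only through the wild-type ones. Trpv3 was 1.63% ± 0.78 (SD, n = 3) of the Trpv RNA in wild-type 2-cell embryos and 83.8% ± 4.7 in the knockout. In GV oocytes the same share was 22.4% ± 7.0 in wild type and 31.5% ± 7.2 in the knockout.

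Cacna1h (ENSMUSG00000024112, chr17:25374285-25433783, minus strand) encodes the pore of the T-type channel CaV3.2 and ranged from 0.0278 to 0.749 FPKM. In MII oocytes it lay at 0.209, 0.237 and 0.269 FPKM in wild type, against 0.119, 0.0278 and 0.106 FPKM in the knockout, without overlap but too low to be tested. In the other 3 stages the genotypes overlapped.

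**Figure D3:**
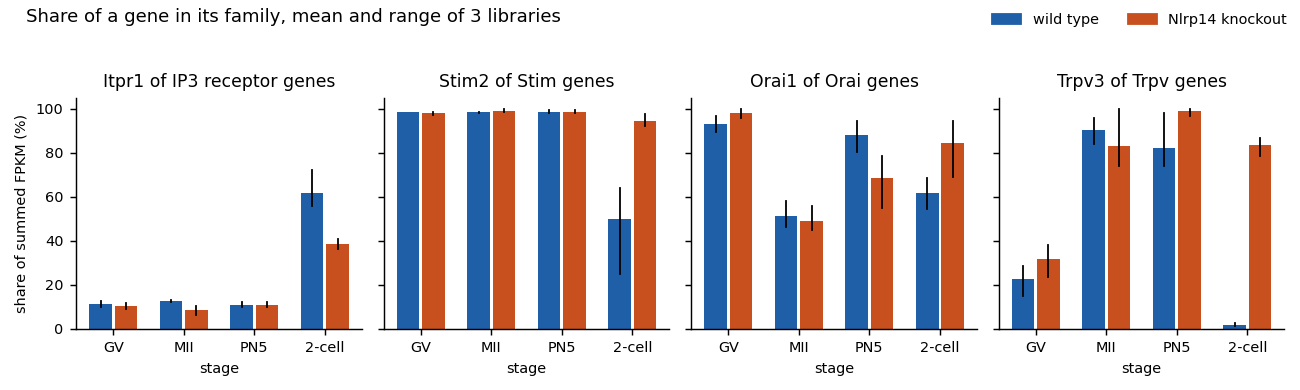
Share of Itpr1, Stim2, Orai1 and Trpv3 in the summed FPKM of their gene families, in percent, by stage and genotype. Bars are means of 3 libraries and lines run from the lowest to the highest library. At the 2-cell stage Itpr1 is 61.6% of its family in wild type and 38.4% in the knockout, and Trpv3 is 1.63% and 83.8%.

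Among the readers of the calcium signal, Camk2g (ENSMUSG00000021820, chr14:20734875-20794088, minus strand) encodes the gamma subunit of CaM kinase II, the form that egg activation is known to need. It was at least 84.8% of the CaM kinase II RNA in every library, and Camk2a, Camk2b and Camk2d did not pass 0.187 FPKM. Wild-type GV oocytes held 4.64, 4.91 and 3.98 FPKM and wild-type MII oocytes 3.02, 2.68 and 2.80 FPKM. Camk2g fell by 0.52 ± 0.11 between them (limma adjusted p = 0.0022), a call lost with median-of-ratios rescaling (-0.22) and with all 24 libraries in 1 fit. Knockout MII oocytes held 2.74, 1.16 and 1.12 FPKM, and the first of these reached into the wild-type range (difference -0.57 ± 0.24, limma adjusted p = 0.15).

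At PN5 Camk2g was at 0.562, 1.49 and 2.75 FPKM in wild type, against 2.95, 3.16 and 3.69 FPKM in the knockout. The groups did not overlap, yet the wild-type spread was wide and the difference of 0.80 ± 0.32 was not called (limma adjusted p = 0.14). In 2-cell embryos the groups overlapped, at 1.24 to 1.99 FPKM in wild type, against 1.94 to 2.43 FPKM in the knockout.

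Calm2 (ENSMUSG00000036438, chr17:87433412-87446935, minus strand) reached the highest level of the 10 genes and had the largest log2 changes between wild-type stages. Wild-type GV oocytes held 457, 470 and 470 FPKM, wild-type MII oocytes 10.2, 9.83 and 9.76 FPKM. The MII mean was 46.9-fold lower, a fall by 5.42 ± 0.06 (limma adjusted p = 5.3e-09). It rose to 50.9, 28.1 and 19.4 FPKM at PN5, by 1.52 ± 0.33 (limma adjusted p = 0.022), and to 696, 622 and 709 FPKM in 2-cell embryos, by a further 4.43 ± 0.34 (limma adjusted p = 1.3e-05). The rise from MII to PN5 was called in 7 of 13 alternatives (1.16 to 1.83) and lost without any 1 of the wild-type MII libraries or without PN5 replicate 2.

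Knockout GV oocytes held 444, 410 and 797 FPKM of Calm2. The highest was knockout GV replicate 3, the GV library with the negative length slope. It also held 15.6 FPKM of Saraf, against 39.9 and 42.4 in the other knockout GV libraries, and 1.39 FPKM of Camk2g, against 4.43 and 3.44. Knockout MII oocytes were down to 10.1, 20.2 and 14.7 FPKM, a 36.7-fold lower mean than at GV. At PN5 the knockout held 9.41, 15.2 and 10.2 FPKM, below every wild-type library, but the difference of -1.34 ± 0.36 was not called (limma adjusted p = 0.063). In 2-cell embryos the knockout held 254, 196 and 204 FPKM. This was 32.3% of the wild-type mean, a difference of -1.63 ± 0.17 with no overlap (limma adjusted p = 0.00034).

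Every 2-cell library held more Calm2 than every PN5 library of its genotype, with a 20.6-fold ratio of means in wild type and an 18.8-fold ratio in the knockout. The interaction over that step was -0.29 ± 0.41 and was not called (limma adjusted p = 0.59). Over the step before it, from MII to PN5, the genotypes differed by -1.84 ± 0.46 (interaction, limma adjusted p = 0.046), a call kept in 4 of 19 alternatives (-2.15 to -1.48). Among the libraries left out in turn, that call and the one of Saraf over the same step held without knockout MII replicate 1 and without wild-type PN5 replicate 3, and were lost without each of the others. Calm3 was far lower than Calm2, at 6.91 ± 2.0 FPKM in wild-type and 2.49 ± 0.62 FPKM in knockout 2-cell embryos (SD, n = 3). Its difference was -1.16 ± 0.27 (limma adjusted p = 0.0075).

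The 2-cell differences have to be read beside the libraries as a whole. Over all genes the median difference between knockout and wild type was -0.44, and 25.8% of the called genes were higher in the knockout. With median-of-ratios rescaling that median became -0.05 and the share 46.5%. Under this rescaling Calm2 (-1.09), Saraf (-0.69) and Trpm7 (-0.71) kept their direction and their calls. Camk2g was called as higher in the knockout (0.61, limma adjusted p = 0.040). Trpv3 (1.65) was called as higher too, but it passed the filter only through the knockout libraries, so its direction followed from the filter. Summed oocyte markers were at 18569 to 25616 FPKM in knockout 2-cell libraries, against 6053 to 7993 FPKM in wild-type ones, and summed 2-cell markers at 1525 to 2296 against 953 to 1326 FPKM. All 12 oocyte markers and 8 of 9 2-cell markers had a mean of at least 1 FPKM in both genotypes. The part of these differences in the members' values was not tested. FPKM are shares of a pool, so less of a transcript per embryo and more of all other RNA cannot be told apart.

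Other cell types were looked for with marker lists. At the 2-cell stage the 18 granulosa and cumulus markers summed to 35.3 to 52.5 FPKM in wild type, against 10.9 to 14.9 FPKM in the knockout, with Fshr, Inha, Inhba, Amh and Ptx3 at 0 in both groups. A mean of 1 FPKM was reached by 5 of the 18 in wild type (Amhr2, Nr5a2, Tnfaip6, Gja1 and Kitl) and by 4 in the knockout (Cyp19a1, Nr5a2, Tnfaip6 and Kitl). The 11 markers of blood, stroma and oviduct summed to 104 to 187 and 28.8 to 41.4 FPKM. Hba-a1, Cd68, Pecam1 and Epcam had a mean of at least 1 FPKM in both genotypes and Krt8 in wild type, while Hbb-bs was at 0 in both, Ptprc in wild type, and Col1a1, Col1a2 and Dcn in the knockout. The part of these markers in the members' 2-cell values was not tested. In PN5 zygotes the summed oocyte markers were at 12395 to 23560 FPKM in wild type, against 10768 to 11730 FPKM in the knockout, and the summed 2-cell markers at 61.9 to 104 and 17.3 to 43.6 FPKM. Their part in the PN5 values of Saraf and Calm2 was not tested.

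The wider calcium pathway was followed in a list of 94 further genes in 8 roles, of which 91 were matched by symbol. At GV 0 of 30 tested list genes were called by limma (0 at an unadjusted p under 0.05), at MII 0 of 26 (7) and at PN5 0 of 25 (13). Over all genes 0.0430%, 2.28% and 6.10% were called at these stages, and 1378 of 11635, 2544 of 8739 and 2964 of 9483 had an unadjusted p under 0.05. The median difference of the list at PN5 was 0.63, with 19 of 25 genes above 0, beside a median of 0.01 over all genes. In 2-cell embryos 19 of 32 list genes were called, 4 higher and 15 lower, beside the 54.3% of all genes given above. Of the 32, 5 had reached 1 FPKM in 1 genotype only, and 4 of these were called: Stim2, Orai3, Trpv2 and Trpc1, the last named after its values were seen. Under median-of-ratios rescaling the split was 7 higher and 11 lower.

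Proteins of the store lumen, which buffer calcium or fold proteins there, had 8 tested genes in 2-cell embryos. Of these 6 were lower in the knockout and 0 higher, where 54.3% of all genes were called and 5577 of the 7513 called were lower, and under median-of-ratios rescaling 4 were lower and 1 higher. Pdia3, a disulfide isomerase of the store, had 104 ± 32 FPKM in wild type, against 23.4 ± 6.0 FPKM in the knockout (SD, n = 3), a difference of -2.09 ± 0.27 (limma adjusted p = 0.00063). Sdf4, a luminal calcium-binding protein, had 17.7 ± 2.4 and 4.04 ± 0.68 FPKM, a difference of -1.89 ± 0.22 (limma adjusted p = 0.00041). The other 4, named after their values were seen, were Hspa5, Calr, Calu and Hsp90b1, with differences from -1.33 to -1.16.

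Elsewhere in the list, Tmco1, a channel that lets calcium leak from an overfull store, was at 22.1 ± 4.4 FPKM in wild-type and 5.70 ± 1.6 FPKM in knockout 2-cell embryos (difference -1.80 ± 0.26, limma adjusted p = 0.00094). Plcd4, a phospholipase C that makes IP3, was at 6.88 ± 2.0 and 1.02 ± 0.40 FPKM (difference -1.95 ± 0.27, limma adjusted p = 0.00079). The 4 list genes that were higher in the knockout were Itpr2, Stim2, Wee2 and Atp2c1. Wee2 is an oocyte kinase that acts in meiotic exit, and Atp2c1 a calcium pump of the Golgi; their differences were 0.77 and 0.84, and both genes were named after their values were seen. Itpr2, Wee2 and Atp2c1 were also called as higher with median-of-ratios rescaling, as TPM and with the length trend removed. So was Stim2, but it passed the filter only through the knockout libraries in each of these settings, so its direction was set beforehand.

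**Figure D4:**
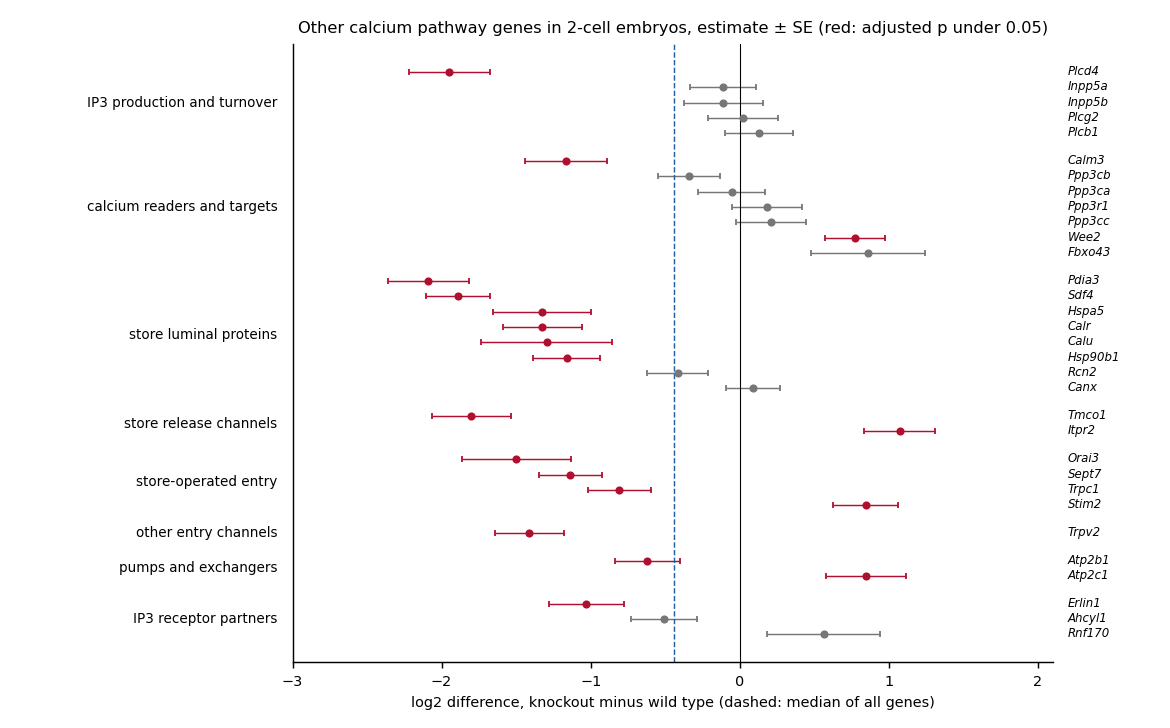
Difference between knockout and wild type in 2-cell embryos for the 32 tested genes of the calcium pathway list that are not among the 10, grouped by role, as limma's log2 difference ± SE. Red marks an adjusted p under 0.05 and the dashed line is the median of all genes, -0.44. Among the store luminal proteins 6 of 8 are lower, and the 4 genes that are higher are Itpr2, Stim2, Wee2 and Atp2c1.

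In wild-type development, from GV to MII, 28 of 32 list genes were called, where 84.0% of all genes were. Of the 28, 13 were higher and 15 lower, or 8 and 19 with the length trend removed. Those with the smallest p were Sdf4 (-2.16 ± 0.10), Trpv2 (-1.75 ± 0.09), Rcn2 (1.41 ± 0.07), another luminal calcium-binding protein, and Fbxo43 (1.78 ± 0.11), which encodes EMI2, the inhibitor that holds the egg at metaphase II and that CaM kinase II marks for removal. From MII to PN5 3 of 26 were called, against 14.2% of all genes, and all were lower: Atp2c2, Rcn2 and Erlin1. From PN5 to the 2-cell stage 18 of 30 were called, against 62.8% of all genes, 12 higher and 6 lower, or 10 and 10 under median-of-ratios rescaling. They were led by Sdf4 (3.31 ± 0.25), Calm3 (2.66 ± 0.26) and Itpr2 (-3.51 ± 0.26), and by Plcd4, which was listed at 0 in the 3 wild-type PN5 libraries.

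The interaction was called for 0 of 32 list genes from GV to MII by limma (0.120% of all genes), with 1 at an unadjusted p under 0.05, as were 829 of all 12478 genes tested. From MII to PN5 it was called for 4 of 27 (7.45% of all genes), Atp2c2, Inpp5b and Ppp3r1 with positive and Tmco1 with negative values. From PN5 to the 2-cell stage it was called for 18 of 33 (45.8% of all genes). Of the 18, 17 were negative, beside 4787 of the 6860 called over all genes, and they were led by Pdia3 (-2.38 ± 0.34), Sdf4 (-1.75 ± 0.29), Plcd4 and Trpv2. Trpv2 was listed at 0 in the 3 knockout PN5 libraries. Of the 8 tested luminal proteins 7 were called there, each with a negative value.

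The genes whose 8 group means ran most like those of 3 members were sought among 6740 protein-coding genes, with Pearson's r of the means of log2(FPKM + 1) as a description. Znrd1 (r = 0.997) and Rps15 (r = 0.995), which encodes a protein of the small ribosomal subunit, were among those most like Calm2, and 649 genes had an r above 0.9. Itpr1 was nearest to E130311K13Rik (r = 0.957), Adnp2 (r = 0.953) and Bmpr2 (r = 0.946), with 30 genes above 0.9. Atp2a2 had only 2 such genes, Dcaf12 (r = 0.930) and Ergic2 (r = 0.908), followed by Dcbld2 (r = 0.898). The 8 means share libraries, depth and scaling.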

How the data were processed

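RNA of 5 oocytes or embryos per library became cDNA through SMART-Seq HT chemistry, as the labels' protocols state. The authors deposited 1 table of FPKM values per library. StringTie and GRCm38 were named in the submitters' processing notes; versions, aligner, annotation and filters are not given in the sources used here. Groups came from the sample labels. Identifiers were matched to GENCODE M21 of GRCm38 (55227 of 55487). Depth, 7.65 to 12.3 M (mega) fragments, was read from low FPKM values of 34257 genes with 1 transcript, of which 98.8 to 99.2% were whole multiples within 0.02.

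Each comparison was fitted across all genes with limma 3.58.1 (R 4.3.3) on log2(FPKM + 1), with trend and robust empirical Bayes. A gene entered the test when 3 or more of the fitted libraries reached 1 FPKM, and it was called at a Benjamini-Hochberg adjusted p under 0.05. The fit was also run on simulated data with known changes, and the outcome is not reported here. The alternatives were a pseudocount of 0.1, no filter, 2 rescalings (median-of-ratios and TPM), a length correction, a fit of all 24 libraries, a replicate block and leaving out each library.

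The 10 genes and the gene lists were chosen with earlier results of these data known. All 10 were named at every stage. Some genes of these lists are not reported here. Relatives in their families were named by share, and up to 4 pathway genes per comparison by smallest p among those called. For Itpr1, Atp2a2 and Calm2, genes among the 3 with the most similar group means were named, among protein-coding genes reaching a group mean of 5 FPKM. No pair of libraries held identical values.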

Additional observations from a re-analysis of the deposited data

Results flagged for a closer look

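For 4 of the 10 genes the difference between knockout and wild type was not the same at successive stages by the interaction test. It was called for 2 of 8 tested members from MII to PN5, beside 7.45% of all genes, and for 3 of 8 from PN5 to the 2-cell stage, beside 45.8%. From MII to PN5 the genotype difference changed by 1.55 for Saraf and by -1.84 for Calm2 on the log2(FPKM + 1) scale (limma adjusted p = 0.045 and 0.046). From PN5 to the 2-cell stage it changed by -2.54 for Saraf, by -0.94 for Trpm7 and by 1.36 for Trpv3 (limma adjusted p = 0.00038, 0.023 and 0.011). The 2 values of Saraf share the PN5 libraries and have opposite signs. Both changes from MII to PN5 were called in 4 of 19 alternatives, that of Trpm7 in 13 of 19, and those of Saraf and Trpv3 from PN5 to the 2-cell stage in all 19.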

How the results depend on the processing

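Of 21 called values of single members, 13 kept call and direction in every alternative run. They include the 2-cell differences of Calm2, Saraf, Trpm7 and Trpv3. Trpv3 passed the filter there only through the knockout libraries, so with the filter its direction was set beforehand. Without a filter Trpv3 was also called as higher (1.48, limma adjusted p = 0.0058). It was not tested when a knockout 2-cell library was left out, since only 2 libraries then reached 1 FPKM. Orai1 from GV to MII went untested in the same way without a wild-type GV library. Itpr1 from GV to MII turned from 0.61 to -0.29 with the length trend removed. Another 61 values changed sign without being called under either setting.

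The counts of called members that moved by over 1.5 times were as follows. At MII 1 became 0 with a pseudocount of 0.1, no filter, median-of-ratios rescaling, the fit of all 24 libraries and the replicate block, and 0 to 4 when 1 library was left out (4 without knockout replicate 1). At PN5 1 became 0 with a pseudocount of 0.1, no filter, median-of-ratios rescaling, TPM and the replicate block, 2 with all 24 libraries, and 0 to 3 when 1 library was left out (3 without wild-type replicate 3). From MII to PN5 in wild type 2 became 1 without a filter, and 1 to 4 with a library left out (4 without wild-type PN5 replicate 3). From PN5 to the 2-cell stage 2 became 4 with median-of-ratios rescaling and 4 with all 24 libraries. The interaction from MII to PN5 went from 2 to 0 with a pseudocount of 0.1, no filter, TPM, length correction and the replicate block, and to 0 to 4 with a library left out. That from PN5 to the 2-cell stage went from 3 to between 2 and 5 with a library left out, 5 without wild-type PN5 replicate 3. The cause was not tested.

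Libraries with the same replicate number did not all deviate together (correlations from -0.39 to 0.23), so the numbers were not treated as pairs; from MII to PN5 in wild type all 3 MII libraries correlated best with their own number. Under the replicate block Orai1 was called at the 2-cell stage (adjusted p = 0.036), and the count over all genes went from 578 to 1 at PN5 and from 759 to 2 for the interaction from MII to PN5. Over the alternatives that keep all libraries, counts over all genes ran from 2 to 164 at GV (5 as reported), from 8 to 239 at MII (199), from 1 to 2005 at PN5 (578), from 597 to 2237 from MII to PN5 (1335), from 2 to 46 for the interaction from GV to MII (15) and from 1 to 1078 for that from MII to PN5 (759). With 1 library left out they ran from 1 to 1026, 3 to 3083, 1 to 2967, 360 to 2632, 1 to 121 and 0 to 4130 in the same order, from 4855 to 6606 at the 2-cell stage (7513) and from 3656 to 8459 from PN5 to the 2-cell stage (8418). Stim1, Cacna1h and wild-type 2-cell Trpv3 rest on few fragments, where depth limits what can be seen.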
